A study of Homo sapiens with 9 samples.

Results

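The 9 genes NQO1, HMOX1, GCLC, GCLM, TXN, TXNRD1, SRXN1, PRDX1 and GPX4 encode enzymes and carriers of the thioredoxin and glutathione systems, and most are known targets of the transcription factor NRF2. They were taken by gene symbol from a table of 23369 genes, and all 9 were found and passed the filter on low values. RNA had been sequenced from NCI-H1155 cells, an established human lung cancer line grown in complete RPMI medium, in 3 groups of 3 libraries. The groups were cells given 1 µM foretinib for 4 h (replicates 1, 2 and 4), cells given 1 µM cabozantinib for 4 h (replicates 3, 4 and 5), and DMSO controls (replicates 2, 4 and 5), and treatment began 24 h after plating. How long the DMSO controls were exposed is not given in the sources used here. Cabozantinib and foretinib are related multi-kinase inhibitors; in foretinib a morpholinopropoxy chain stands where cabozantinib has a methoxy group on its quinoline, and the central phenyl ring bears a fluorine. All groups were the same line with no other agent named in the labels, and the study asks how such similar inhibitors come to differ in anticancer activity.

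NRF2, encoded by NFE2L2, is held low in unstressed cells by KEAP1, which hands it to a ubiquitin ligase built on CUL3 and RBX1. Oxidants and electrophiles modify KEAP1, NRF2 then accumulates, pairs with small MAF proteins and binds antioxidant response elements, and BACH1 competes for the same elements as a repressor. Its targets supply reduced glutathione and thioredoxin, which remove peroxides and repair oxidised proteins at the expense of NADPH, and mutations that activate NRF2 recur in lung cancers.

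Windows around the start sites of the genes were searched for the core of the antioxidant response element, the kind of sequence through which NRF2 is known to act. The stretches that hold a match are shown, and whether NRF2 binds them was not tested. The core was searched as TGACNNNGC on either strand, reading GCNNNGTCA on the other, in RefSeq windows from 250 bases before to 50 bases after a start site (build GRCh38.p14). The table held 10 windows for 7 of the 9 genes, and 3 windows of 2 genes, GCLM and TXNRD1, held a match. HMOX1 and PRDX1 had no window. Sequence farther from a start site was not searched, so windows without a match, as for NQO1 and GCLC, do not show that a gene lacks the element. Of all 35116 windows in the table, 4687 held one, which is 13.3%. Each sequence is given 5′ to 3′ on the strand of the gene, with the match in capitals.
GCLM, chr1:93909436-93909484, minus strand: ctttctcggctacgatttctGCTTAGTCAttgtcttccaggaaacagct
TXNRD1, chr12:104215660-104215708, plus strand: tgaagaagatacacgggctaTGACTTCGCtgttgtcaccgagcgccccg
TXNRD1, chr12:104215751-104215799, plus strand: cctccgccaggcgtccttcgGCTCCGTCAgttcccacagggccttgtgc
TXNRD1, chr12:104286910-104286958, plus strand: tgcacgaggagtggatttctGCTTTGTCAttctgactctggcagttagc
The GCLM match began 34 bases before the start site. Those of TXNRD1 began 99 and 8 bases before one start site and 102 bases before the other. The letters TGAC are also the first letters of the AP-1 element TGACTCA, and a match is a description of the letters only.

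Values are normalised read counts, the reads of a gene divided by 1 size factor per library, and errors are SD over the 3 libraries of a group. Libraries held 26996023 to 34062153 reads assigned to genes. The foretinib libraries stood apart in detection: 18.5% ± 2.38 of the 12642 tested genes were at 0 in them, against 5.01% ± 0.544 in cabozantinib and 7.25% ± 3.14 in DMSO libraries, and the part of this in the results below was not tested. All 9 genes were above 0 in all 9 libraries. Of 12 markers of a neuroendocrine lung line, 11 were above 0 in every library, with summed values of 77206 to 80399 in foretinib, 75349 to 79398 in cabozantinib and 65637 to 71913 in DMSO libraries. Of 6 leukocyte markers 4 were at 0 in all 9 libraries, PTPRC, CD3E and ITGAM among them, and 2 passed the filter; the list summed to 9.87 to 755 in foretinib, 174 to 300 in cabozantinib and 4.89 to 228 in DMSO libraries. Of 5 red cell markers 4 were at 0 throughout, HBA1, HBB and ALAS2 among them, and the list summed to at most 141, in a cabozantinib library. VWF, CDH5, KDR and TEK of 5 endothelial markers were at 0 throughout, and that list summed to at most 87.4, in a DMSO library. COL3A1, DCN and PDGFRB of 6 fibroblast markers were at 0 throughout and 2 passed the filter, with sums of 869 to 1194 in foretinib, 767 to 1049 in cabozantinib and 453 to 1345 in DMSO libraries. Of 6 epithelial markers the keratin KRT19 was at 0 throughout and 5 were tested, with sums of 2603 to 5439 in foretinib, 4272 to 6674 in cabozantinib and 3962 to 6554 in DMSO libraries. The part of these cell type markers in the results was not tested.

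None of the 9 genes passed the test in any comparison after 4 h of treatment. In foretinib against DMSO, 0 of 9 passed an adjusted p of 0.05 (limma, Benjamini-Hochberg over all tested genes), where 0% of all 12642 genes passed. In cabozantinib against DMSO and in foretinib against cabozantinib the counts were also 0 of 9, again with 0% of all genes. At an unadjusted p under 0.05 stood 1146 genes (9.07%) in foretinib against DMSO, 166 (1.31%) in cabozantinib against DMSO and 1252 (9.9%) in foretinib against cabozantinib. Among the 9 genes GPX4 alone was below that level, in both comparisons that involve foretinib, so 1 of 9 lies near the background share. The edgeR quasi-likelihood test on the recovered reads called 0 genes in each comparison. DESeq2 on the same reads called 650, 47 and 618 of 12073 genes tested in that order of comparisons, none of them among the 9. With shares this low, 0 of 9 does not set these genes apart from others. The 2 comparisons with foretinib share its libraries, and the 2 comparisons with DMSO share the control libraries.

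GPX4, the selenoenzyme that reduces lipid hydroperoxides in membranes with glutathione and so holds back ferroptosis, showed the clearest separation. It had 1933, 3036 and 2700 normalised reads in foretinib libraries, 1052, 1559 and 1109 in cabozantinib libraries, and 1397, 1306 and 964 in DMSO libraries. All 3 foretinib libraries lay above all 6 others, while the cabozantinib and DMSO values overlapped. The means were 2556 ± 565 in foretinib, 1240 ± 278 in cabozantinib and 1223 ± 228 in DMSO libraries, ratios of 2.09 over DMSO and 2.06 over cabozantinib. On the log2(value + 1) scale the difference was 1.06 against DMSO (95% interval 0.16 to 1.95, limma adjusted p = 0.501). Against cabozantinib it was 1.04 (0.15 to 1.93, adjusted p = 0.454). The adjusted p ran from 0.0928 to 0.776 over the alternatives in the comparison with DMSO and from 0.106 to 0.780 in that with cabozantinib, so it passed under none. An exact two-sided permutation test over the libraries gave p = 0.1 in each comparison, the smallest that 3 against 3 allows. Groups without overlap and foretinib higher were found for 3.99% of all tested genes against DMSO and for 4.49% against cabozantinib, and for 1 of the 9 genes in each. Groups without overlap and foretinib lower were found for 0 of 9, beside 7.69% of all tested genes against DMSO and 9.7% against cabozantinib. Counting both directions, the groups were apart for 11.7% and 14.2% of all tested genes in these comparisons. Cabozantinib and DMSO were apart for 0 of 9, beside 9.9% of all tested genes, 5.18% with cabozantinib higher. Cabozantinib and DMSO differed by 0.02 (-0.88 to 0.91), an interval that leaves room for a fold from 0.545 to 1.88. In bulk RNA a change in every cell and a change in some of the cells cannot be told apart.

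**Figure D1:**
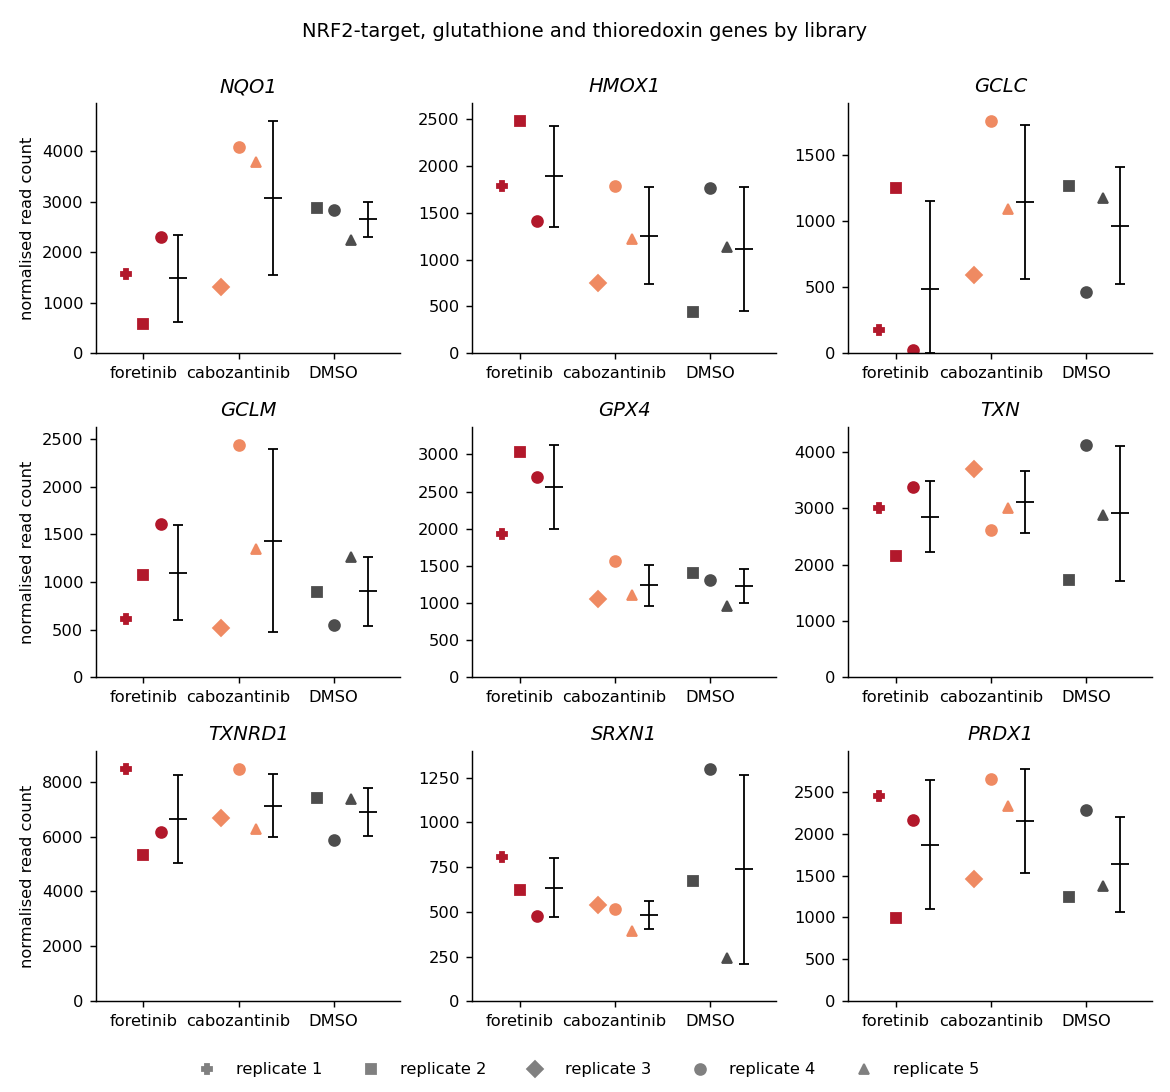
Normalised read count (y axis, linear, from 0) of each of the 9 genes in the 3 foretinib, 3 cabozantinib and 3 DMSO libraries; symbols are libraries by replicate number, and the bar beside them is the mean ± SD, cut off at 0 for GCLC in foretinib. The GPX4 foretinib libraries, at 1933 to 3036, lie above all 6 others, whose highest value is 1559.

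NQO1 encodes a quinone reductase that serves as a standard readout of NRF2 activity. Its values were 1577, 570 and 2298 in foretinib libraries, 1320, 4088 and 3794 in cabozantinib libraries, and 2876, 2829 and 2245 in DMSO libraries. The foretinib mean of 1482 ± 868 was the lowest of the groups, beside 3067 ± 1520 in cabozantinib and 2650 ± 352 in DMSO libraries, but foretinib replicate 4 lay inside the DMSO range and cabozantinib replicate 3 below all DMSO libraries. The log2 difference was -1.05 between foretinib and DMSO (-2.21 to 0.12, limma adjusted p = 0.531) and -1.10 between foretinib and cabozantinib (-2.26 to 0.06, adjusted p = 0.513). Foretinib replicate 2 carried much of it: without that library the differences were -0.47 and -0.52. Cabozantinib and DMSO differed by 0.05 (-1.11 to 1.22), so that a fold from 0.464 to 2.33 lies inside the interval.

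HMOX1, the inducible haem oxygenase that NRF2 raises and BACH1 represses, leaned the other way. Foretinib libraries had 1787, 2472 and 1408, cabozantinib libraries 751, 1788 and 1223, and DMSO libraries 442, 1764 and 1134. The groups overlapped in every comparison, with means of 1889 ± 539, 1254 ± 519 and 1113 ± 661 in foretinib, cabozantinib and DMSO libraries. The log2 difference was 0.94 for foretinib against DMSO (-0.32 to 2.19, limma adjusted p = 0.561), and it was 0.38 without DMSO replicate 2, the lowest library. It was 0.64 for foretinib against cabozantinib (-0.61 to 1.89) and 0.30 for cabozantinib against DMSO (-0.96 to 1.55). NQO1 and HMOX1, the pair most used as readouts of NRF2, therefore had differences of opposite sign in foretinib, neither past the test.

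GCLC and GCLM encode the catalytic and the modifier subunit of glutamate-cysteine ligase, the rate-limiting enzyme of glutathione synthesis. GCLC had 177, 1252 and 22.0 normalised reads in foretinib libraries, 592, 1753 and 1091 in cabozantinib libraries, and 1262, 460 and 1175 in DMSO libraries. A pair of foretinib libraries lay below every other library and the remaining one, replicate 2, near the highest DMSO value. The log2 difference of -2.35 between foretinib and DMSO was the largest in size among the 9 genes in that comparison and had a wide interval (-5.03 to 0.32, limma adjusted p = 0.531). It was -0.90 without foretinib replicate 4 and -3.79 without foretinib replicate 2, while the ratio of the means, 484 ± 670 over 966 ± 440, was 0.501. Against cabozantinib, at 1145 ± 582, the difference was -2.60 (-5.28 to 0.08, adjusted p = 0.508). It was -1.14 without foretinib replicate 4 and -4.03 without foretinib replicate 2. Cabozantinib against DMSO gave 0.24 (-2.43 to 2.92).

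GCLM, whose promoter match is shown above, did not follow GCLC. It had 607, 1079 and 1611 in foretinib libraries, 516, 2436 and 1351 in cabozantinib libraries, and 895, 546 and 1262 in DMSO libraries, with overlap in every comparison. Its log2 difference was 0.26 for foretinib against DMSO (-1.20 to 1.72), 0.49 for cabozantinib against DMSO (-0.97 to 1.95) and -0.23 for foretinib against cabozantinib (-1.69 to 1.23). Over the 9 libraries the log2 values of the subunits had a Pearson r of 0.08, a description over libraries that share groups and depth.

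The intervals were narrowest for TXN and TXNRD1. TXN, the small protein that reduces disulphides in other proteins, had 3014, 2160 and 3388 in foretinib libraries, 3704, 2611 and 3006 in cabozantinib libraries, and 1731, 4119 and 2882 in DMSO libraries. The DMSO libraries alone spanned the values of both treated groups. TXNRD1, the selenoenzyme that recycles thioredoxin with NADPH, had 8449, 5346 and 6155 in foretinib libraries, 6659, 8450 and 6282 in cabozantinib libraries, and 7410, 5869 and 7368 in DMSO libraries. These values spread over like ranges in the 3 groups. The TXNRD1 log2 difference was -0.07 for foretinib against DMSO (-0.56 to 0.43), 0.05 for cabozantinib against DMSO (-0.45 to 0.54) and -0.12 for foretinib against cabozantinib (-0.61 to 0.38). In fold these intervals run from 0.677 to 1.34, from 0.734 to 1.45 and from 0.656 to 1.30, so that for this gene a change of 2-fold lies outside them. For TXN the differences were 0.03 (-0.73 to 0.80), 0.17 (-0.60 to 0.94) and -0.13 (-0.90 to 0.64) in that order of comparisons.

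PRDX1 is a peroxiredoxin that thioredoxin keeps reduced, and SRXN1, sulfiredoxin, rescues overoxidised peroxiredoxins. PRDX1 had 2454, 995 and 2163 in foretinib libraries, 1459, 2656 and 2332 in cabozantinib libraries, and 1244, 2279 and 1376 in DMSO libraries. SRXN1 had 807, 622 and 477 in foretinib libraries, 538, 514 and 392 in cabozantinib libraries, and 673, 1297 and 242 in DMSO libraries. Both genes overlapped in every comparison, and the DMSO libraries of SRXN1 reached above and below all 6 treated ones. The PRDX1 log2 difference was 0.15 for foretinib against DMSO (-0.84 to 1.13), 0.40 for cabozantinib against DMSO (-0.58 to 1.39) and -0.26 for foretinib against cabozantinib (-1.25 to 0.73). That of SRXN1 was 0.06 (-1.79 to 1.91), -0.32 (-2.17 to 1.53) and 0.38 (-1.47 to 2.23) in the same order. RefSeq lists 7 pseudogenes of TXN and 1 each of SRXN1 and PRDX1, which may share reads with them. In GENCODE release 29, exons of PRDX1, NQO1 and GCLC overlap those of MMACHC, AC092115.2 and AL033397.2 on the other strand and those of SRXN1 overlap AL121758.1 on its own; the strand setting of the counting is not given in the sources used here, so these values are uncertain.

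The direct comparison of the compounds covered 1 pair at the same dose and time. None of the 9 genes passed the test of the difference between foretinib and cabozantinib, with p-values adjusted over all 12642 genes. The differences ran from -2.60 for GCLC to 1.04 for GPX4 on the log2 scale. The intervals of all but TXN and TXNRD1 include a 2-fold difference in at least 1 direction, so they do not show that the compounds act alike on these genes.

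**Figure D2:**
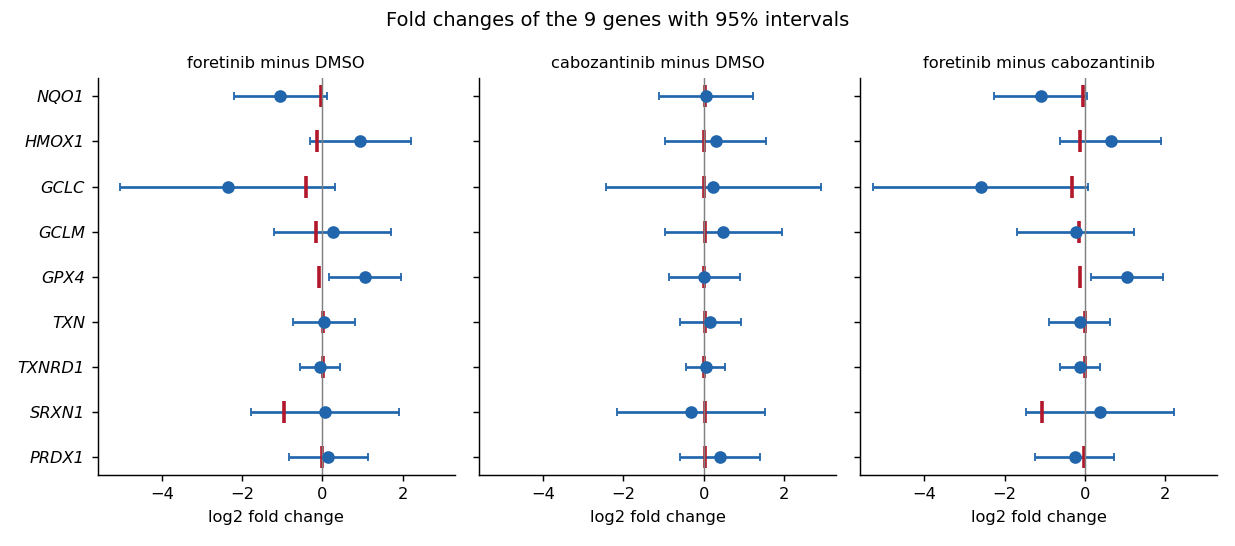
Log2 fold change (x axis, log2(value + 1) scale) of each of the 9 genes for foretinib minus DMSO, cabozantinib minus DMSO and foretinib minus cabozantinib; dots are limma estimates, bars their 95% intervals, and the red tick is the median of the 500 tested genes nearest in mean value. Only the GPX4 intervals in the comparisons with foretinib, 0.16 to 1.95 and 0.15 to 1.93, leave out 0, and GCLC has the widest intervals.

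The summed values of the 9 genes overlapped between the groups. They summed to 19519 ± 1745 normalised reads in foretinib, 21008 ± 4646 in cabozantinib and 19016 ± 1309 in DMSO libraries. The median log2 difference of the 9 was 0.06 for foretinib against DMSO, beside -0.34 over all tested genes, with 6 above and 3 below 0. For cabozantinib against DMSO it was 0.17 beside 0.04, with 8 above and 1 below 0. For foretinib against cabozantinib it was -0.13 beside -0.44, with 3 above and 6 below 0. The background medians depend on scaling: after quantile normalisation they were -0.04, 0.01 and -0.05. They also depend on level: over genes with a mean of at least 500 they were -0.10, 0.01 and -0.11. Against the 500 tested genes of like mean value, the GPX4 difference was 1.14 above their median in foretinib against DMSO and 1.16 above it in foretinib against cabozantinib. That of NQO1 was -1.02 and -1.05 relative to such genes. GPX4 did not stand alone on this measure. SRXN1 was 1.01 and 1.44 above the median of genes of its level, though its own difference from DMSO was 0.06. GCLC was at -1.94 and -2.27 in the same order of comparisons. HMOX1 was almost as far above as GPX4 against DMSO, but less so against cabozantinib, at 0.75. GCLM, TXN, TXNRD1 and PRDX1 lay nearer to genes of their level.

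Replicates of the 9 genes varied by unlike amounts. The median coefficient of variation (SD over mean) was 28.5% in foretinib, 28.8% in cabozantinib and 39.7% in DMSO libraries. Genes of like level had medians of 49.5%, 25.4% and 29.4% in the same groups. In foretinib libraries 2 of 9 varied more than genes of their level, NQO1 at 58.6% and GCLC at 139%; in cabozantinib and in DMSO libraries 6 of 9 did. GPX4 was among the steadier genes, at 22.1% in foretinib, 22.4% in cabozantinib and 18.7% in DMSO libraries.

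**Figure D3:**
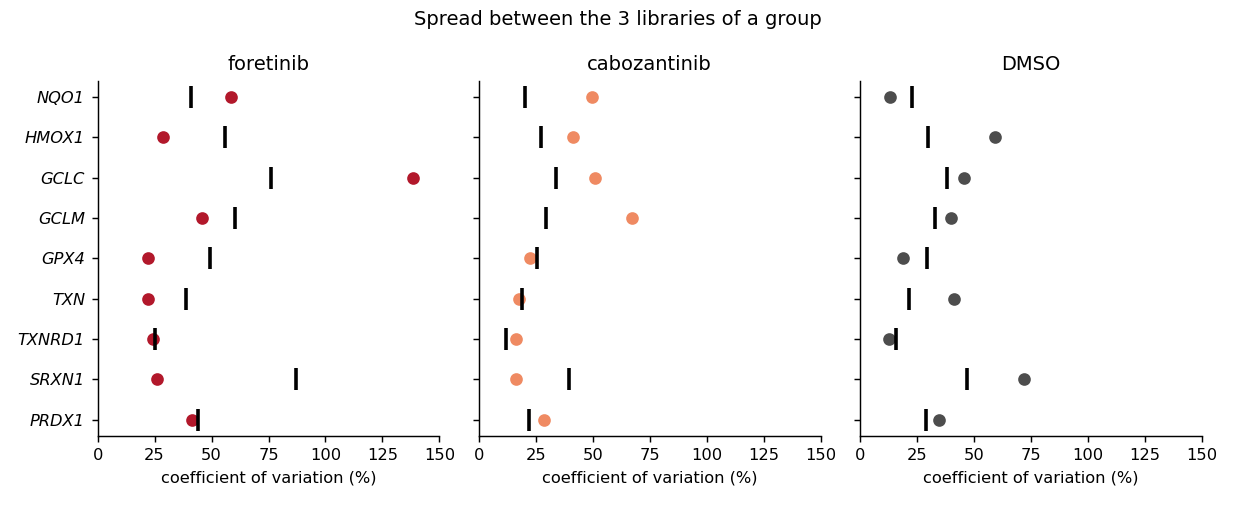
Coefficient of variation over the 3 libraries of a group (x axis, percent) for each of the 9 genes in foretinib, cabozantinib and DMSO; dots are the genes and black ticks the median of the 500 tested genes nearest in mean value. GCLC in foretinib, at 139%, is the highest point, and GPX4 lies below the tick in all 3 groups.

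Per kilobase of exonic length (GENCODE release 29), the levels in DMSO libraries ran in the order TXN, TXNRD1, PRDX1, GPX4, NQO1, HMOX1, SRXN1, GCLM and GCLC. TXN stood at 3349 ± 1374 normalised reads per kilobase, and its lowest DMSO library, at 1992, was above the highest of TXNRD1, at 1468. TXNRD1 averaged 1364 ± 174, PRDX1 1305 ± 450, GPX4 992 ± 185, NQO1 848 ± 113 and HMOX1 611 ± 363 per kilobase. SRXN1 averaged 273 ± 197, GCLM 184 ± 73.0 and GCLC 151 ± 69.0 per kilobase. Every pair of neighbours in this order below TXN had overlapping DMSO values. Per kilobase GPX4 averaged 2075 ± 459 in foretinib, 1006 ± 225 in cabozantinib and 992 ± 185 in DMSO libraries.

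None of the 11 tested genes for NRF2 and its controllers passed in any comparison. At an unadjusted p under 0.05, 3 of them were lower in foretinib than in DMSO libraries, each without overlap, beside 6.9% of all tested genes. The small MAF gene MAFG had 625, 868 and 393 in foretinib libraries, against 2359, 1614 and 952 in DMSO libraries (log2 difference -1.36, -2.60 to -0.12, limma adjusted p = 0.528). RBX1 of the ubiquitin ligase had 1801, 1437 and 517 in foretinib libraries, against 1821, 2601 and 2517 in DMSO libraries (-1.05, -2.06 to -0.05, adjusted p = 0.531). MAFF, another small MAF gene, was listed at 0 in the 3 foretinib libraries, against 2.50, 130 and 149 in DMSO libraries. NFE2L2 averaged 3502 ± 1223 in foretinib, 2943 ± 243 in cabozantinib and 3884 ± 804 in DMSO libraries. Its log2 difference was -0.18 for foretinib against DMSO (-0.84 to 0.47) and -0.38 for cabozantinib against DMSO (-1.04 to 0.27). The cabozantinib values lay below all DMSO values, as they did for 4.71% of all tested genes. KEAP1 averaged 1943 ± 957, 1570 ± 398 and 1730 ± 287 in foretinib, cabozantinib and DMSO libraries. BACH1 had 1546, 1126 and 10.5 in foretinib libraries, against 266, 528 and 595 in DMSO libraries. KEAP1 acts on NRF2 protein, which was not analysed here.

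Outside the 9 genes, 8 lists of the wider pathway held 108 tested genes, of which 0 passed in each comparison. At an unadjusted p under 0.05, 5 were higher and 10 lower in foretinib than in DMSO, beside 2.17% higher and 6.9% lower among all tested genes. In foretinib against cabozantinib 5 were higher and 12 lower, beside 1.83% and 8.08% of all genes. In cabozantinib against DMSO 0 were higher and 1 lower, beside 0.878% and 0.435% of all genes. Their median log2 difference was -0.22 (foretinib minus DMSO), 0.09 (cabozantinib minus DMSO) and -0.33 (foretinib minus cabozantinib). Over all tested genes it was -0.34, 0.04 and -0.44 in the same order. In foretinib against DMSO the median depended on level. It was -2.30 for the 500 tested genes nearest MAFF in mean value, -0.95 for those nearest SRXN1 and 0.005 for those nearest TXNRD1. The lists below differ in level, and the part of this in their medians was not tested.

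Enzymes that supply NADPH, the reductant for both systems, had the highest list medians in foretinib: 0.31 against DMSO and 0.50 against cabozantinib over 11 tested genes, 0 of them past the adjusted p. All tested genes had medians of -0.34 and -0.44. IDH2, the mitochondrial NADP-dependent isocitrate dehydrogenase, had 5594, 5375 and 4626 in foretinib libraries, 2411, 2552 and 3297 in cabozantinib libraries, and 3055, 2709 and 2651 in DMSO libraries. The foretinib libraries were above all others, a log2 difference of 0.89 over DMSO (0.32 to 1.45, limma adjusted p = 0.367) and 0.93 over cabozantinib (0.36 to 1.49, adjusted p = 0.377). TKT, transketolase of the pentose phosphate pathway, differed by 0.50 from DMSO (0.09 to 0.92, adjusted p = 0.497). NNT, an enzyme of the inner mitochondrial membrane that makes NADPH with NADH, differed by -1.18 (-2.02 to -0.34, adjusted p = 0.419), with 1015, 1230 and 2675 in foretinib libraries against 3571, 2992 and 3646 in DMSO libraries.

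Of 25 tested genes of glutathione synthesis, recycling and use, 0 passed, and the list median was -0.10 (foretinib minus DMSO), 0.42 (cabozantinib minus DMSO) and -0.80 (foretinib minus cabozantinib). All tested genes had -0.34, 0.04 and -0.44. SLC7A11, the cystine importer that feeds glutathione synthesis and an NRF2 and ATF4 target, had 1737, 4467 and 5088 in foretinib libraries, against 1832, 1955 and 1281 in DMSO libraries. One foretinib library lay within the DMSO range (log2 difference 1.04, -0.04 to 2.11, adjusted p = 0.531). GSTO1, a glutathione transferase of the omega class, had 932, 168 and 428 in foretinib libraries, against 1586, 1708 and 1218 in DMSO libraries (-1.87, -3.33 to -0.42, adjusted p = 0.457). GSTP1, GSTM1, GSTA1, MGST1 and GGT1 were listed at 0 in all 9 libraries. Among 17 thioredoxin and peroxiredoxin genes, PRDX2 averaged 4050 ± 818 in foretinib and 2595 ± 422 in DMSO libraries, without overlap and with an interval that includes 0 (0.63, -0.04 to 1.30, adjusted p = 0.531).

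Other reported NRF2 targets had a median of -0.79 for foretinib against DMSO and -0.87 for foretinib against cabozantinib over 16 tested genes, of which 0 passed. All tested genes had -0.34 and -0.44. Several genes of the list were low, and the part of this in its medians was not tested. BLVRB, a biliverdin reductase, was listed at 0 in the 3 foretinib libraries, against 171, 411 and 293 in cabozantinib libraries and 266, 934 and 110 in DMSO libraries. AKR1C1, AKR1B10 and ALDH3A1, well known NRF2 targets in lung cells, were listed at 0 in all 9 libraries. UGDH, which makes UDP-glucuronate, had 1154 ± 312 in foretinib and 2408 ± 377 in cabozantinib libraries (-1.08, -1.95 to -0.22, adjusted p = 0.423). SQSTM1, whose product p62 draws KEAP1 into autophagy, is among the controllers and was the 1 gene of the 108 at an unadjusted p under 0.05 in cabozantinib against DMSO, with 2992, 3325 and 1896 in cabozantinib against 4354, 4637 and 4456 in DMSO libraries (-0.75, -1.38 to -0.13, limma adjusted p = 1.000).

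Because GPX4 and TXNRD1 are selenoproteins, genes for other selenoproteins and for their synthesis were read as well. Over 15 tested genes 0 passed, and foretinib had a median of -0.50 relative to DMSO and -0.66 relative to cabozantinib. All tested genes had -0.34 and -0.44. SELK, a selenoprotein of the endoplasmic reticulum, had 13.2, 49.9 and 39.7 in foretinib libraries, 782, 1545 and 1515 in cabozantinib libraries, and 465, 1179 and 830 in DMSO libraries. The foretinib libraries lay below all others, and the adjusted p was 0.358 against DMSO (-4.64, -7.24 to -2.04) and 0.377 against cabozantinib (-5.31, -7.91 to -2.71). SELS, also of the endoplasmic reticulum, averaged 4480 ± 1475 in foretinib and 7565 ± 691 in DMSO libraries (-0.81, -1.37 to -0.26, adjusted p = 0.406). PSTK, a kinase needed to charge the selenocysteine transfer RNA, was listed at 0 in the 3 foretinib libraries, against 149, 381 and 116 in cabozantinib libraries and 78.2, 210 and 381 in DMSO libraries. Against DMSO, 3 of the 15 were lower in foretinib at an unadjusted p under 0.05, each without overlap. Among all tested genes these shares were 6.9% and 7.69%. Against cabozantinib 4 were lower in this way, beside 8.08% and 9.7%. On the other side, 2 genes of the list were higher in foretinib at an unadjusted p under 0.05 without overlap, and both were picked out here after their values were seen. Shares of all tested genes were 2.17% and 3.99% against DMSO and 1.83% and 4.49% against cabozantinib. SEPW1, a small selenoprotein, had 2264, 2385 and 2064 in foretinib libraries, 901, 1137 and 1324 in cabozantinib libraries, and 1365, 665 and 1490 in DMSO libraries (1.01 against each, limma adjusted p = 0.531 against DMSO and 0.499 against cabozantinib). EEFSEC, the elongation factor for selenocysteine, had 1341, 1742 and 3931 in foretinib libraries, 562, 503 and 937 in cabozantinib libraries, and 1054, 204 and 1005 in DMSO libraries (1.80 against DMSO, adjusted p = 0.526).

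**Figure D4:**
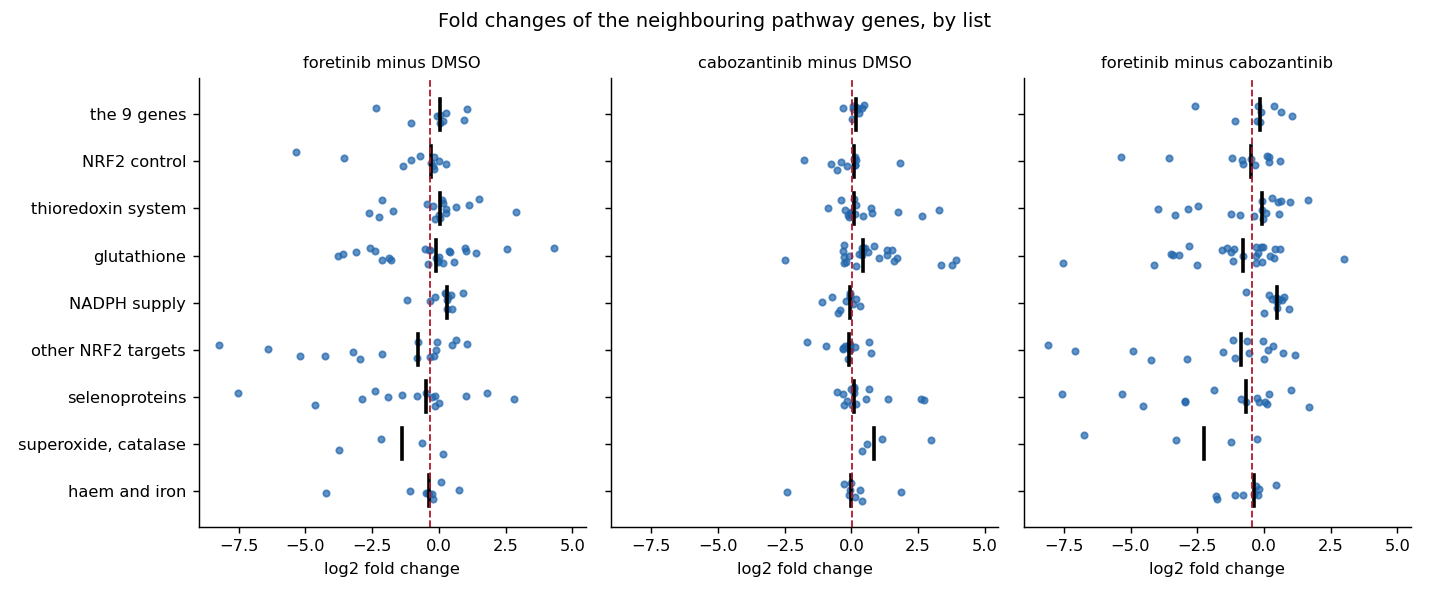
Log2 fold change (x axis, log2(value + 1) scale) of the tested genes of each pathway list and of the 9 genes, for foretinib minus DMSO, cabozantinib minus DMSO and foretinib minus cabozantinib; dots are genes, black bars list medians, and the dashed red line is the median of all tested genes. The NADPH list has a median of 0.31 in foretinib minus DMSO and the other NRF2 targets one of -0.79; the positions of genes listed at 0 in a group, at the far left, depend on the pseudocount.

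Among 36 pairs of the 9 genes, NQO1 and PRDX1 had the highest Pearson r of log2 values over the 9 libraries, at 0.66, and GCLM and SRXN1 the lowest, at -0.57. The genes most like GPX4 over the 9 libraries were ERH and METTL6, each at r = 0.95. They were sought among 5430 tested genes of mean 1000 or more that were above 0 in all 9 libraries. For NQO1 the most alike were TMX1 at 0.97 and AP4E1 at 0.94, and for GCLC, among 5431 genes, POLR3E at 0.97 and KCTD10 at 0.96. For HMOX1 they were ADD3 at 0.94 and NEK1 at 0.93. These values describe 9 libraries that share groups and depth, and the best of so many genes is high by selection.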

How the data were processed

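Per the labels' protocols, DNase-treated RNA went into NuGEN Encore Complete libraries, in what they call biological triplicates. The signal that the authors deposited for each gene is a read count scaled by a library's size factor. Tools in the submitters' processing notes are HTSeq, DESeq2, TopHat2 2.0.13 and Cufflinks 2.2.1, and the build there is hs37d5. Their roles, the annotation and the strand setting were not given in the sources used here. Every value (100%) of all 9 columns was a whole multiple of its column's step (tolerance 1e-06), so whole reads were recovered. In 3 columns the step lay near 1, at 0.993 for cabozantinib 3, 0.997 for cabozantinib 4 and 1.005 for DMSO 4. There the recovered reads differ little from the values rounded to whole numbers. Reads without molecular identifiers are not independent molecules. No columns were left without a sample.

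The test took 12642 genes that reached 10 in 3 libraries or more, as log2(value + 1), in limma-trend (R 4.3.3, limma 3.58.1; all 9 libraries in 1 model, no covariates, Benjamini-Hochberg, threshold 0.05). A gene listed at 0 in a whole group is given no fold. The procedure was tested on simulated data with the same dispersion for all genes and no added zeros. The foretinib libraries varied more than that, so the simulation does not give the power of the test in these data. Alternatives were pseudocounts of 10 and 100, no filter, a mean of at least 500, quantile and TMM scaling, edgeR 4.0.16, DESeq2 1.42.0, only the 6 libraries compared, a replicate block and leaving out each library. Counts of replicates within a group differed by a chi-square of at least 124 per degree of freedom, so no library was a repeat of another of its group. This value was 545 to 553 for foretinib pairs, 124 to 145 for cabozantinib pairs and 140 to 229 for DMSO pairs. Foretinib replicates thus differed most from each other, and the part of this in the results was not tested.

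The members and lists were chosen with earlier results of these data known. Named genes were the 9 members, NFE2L2, KEAP1 and BACH1, up to 3 genes per list and comparison with the smallest p, and the 2 genes most correlated with each member; the text describes some of these. SEPW1 and EEFSEC lay outside this rule and were named after their values were seen, and EGR1 was named for its call after quantile normalisation. Genes listed at 0 throughout were named as such. VIMP, SELI and SEPX1 were not found under these symbols.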

Additional observations from a re-analysis of the deposited data

How the results depend on the processing

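No member passed the threshold in any comparison under any of the 19 alternatives. Of 513 member values under them, 471 kept their sign and 42 did not. Part of the 471 was fixed in advance. A limma fold of a member cannot change with the filter or when only the 6 libraries compared are used. Nor can it change when a library of the group not compared is left out. GPX4, NQO1, HMOX1 and GCLC kept their sign throughout in both comparisons with foretinib, as did PRDX1 in cabozantinib against DMSO, 9 of 27 results in all. DESeq2 called 650 genes in foretinib against DMSO, 47 in cabozantinib against DMSO and 618 in foretinib against cabozantinib, and quantile normalisation called 1 in foretinib against DMSO, EGR1 (log2 difference -2.85, adjusted p = 0.0146); the cause was not tested. Deviations of samples with the same replicate number had r from -0.002 to 0.029, beside -0.024 to 0.031 for samples with unlike numbers. Centring within groups of 3 holds such r near 0 on average, so whether samples of 1 number shared a batch cannot be told from them. With the replicate block the median of the members was -0.12 in foretinib against DMSO and -0.34 in foretinib against cabozantinib, and signs changed for SRXN1 (-0.55) and PRDX1 (-0.12) in foretinib against DMSO, for TXN (-0.24) in cabozantinib against DMSO, and for TXN (0.34) and SRXN1 (-0.34) in foretinib against cabozantinib. In foretinib against DMSO, TXN was -0.068 after quantile normalisation, -0.064 in edgeR and -0.030 in DESeq2, and SRXN1 was -0.25 in edgeR and -0.22 in DESeq2. Leaving out each library in turn, the median of the members in foretinib against DMSO ran from -0.10 to 0.33, and genes whose sign changed ran, in that comparison, from -0.073 to 0.63 for GCLM, -0.30 to 0.33 for TXN, -0.25 to 0.076 for TXNRD1, -0.59 to 0.62 for SRXN1 and -0.10 to 0.55 for PRDX1. In cabozantinib against DMSO they ran from -0.23 to 0.58 for NQO1, -0.26 to 0.74 for HMOX1, -0.22 to 0.65 for GCLC, -0.029 to 1.09 for GCLM, -0.16 to 0.46 for TXN, -0.081 to 0.13 for TXNRD1, -0.97 to 0.24 for SRXN1 and -0.16 to 0.12 for GPX4. In foretinib against cabozantinib they ran from -0.83 to 0.29 for GCLM, -0.27 to 0.055 for TXN, -0.30 to 0.028 for TXNRD1 and -0.51 to 0.15 for PRDX1. With 3 libraries a group, intervals stay wide for all members but TXNRD1 and TXN.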

Other observations

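Superoxide dismutases, which turn superoxide into hydrogen peroxide, with their chaperone and catalase were read as a further list of 4 tested genes, of which 0 passed in any comparison. SOD1, the cytosolic enzyme, averaged 2716 ± 742 in cabozantinib and 2034 ± 533 in DMSO libraries (log2 difference 0.41, -0.45 to 1.28, limma adjusted p = 1.000). SOD2, the mitochondrial enzyme, had 344, 2334 and 544 in foretinib libraries, against 928, 1914 and 909 in DMSO libraries, with foretinib replicate 2 above the DMSO range and the others below it. CCS, the copper chaperone of SOD1, was listed at 0 in the 3 foretinib libraries, against 247, 59.8 and 78.8 in cabozantinib libraries and 0, 47.2 and 49.9 in DMSO libraries.

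Of 9 genes of haem breakdown and iron handling, 0 passed in foretinib against DMSO, with 2 differences above and 7 below 0. The list median was -0.38, beside -0.34 over all tested genes. FECH, which inserts iron into protoporphyrin, had 4644, 3209 and 4505 in foretinib libraries, against 2725, 2375 and 2148 in DMSO libraries. The groups did not overlap (0.76, 0.14 to 1.37, limma adjusted p = 0.492). In this list 1 gene was higher and 1 lower in foretinib without overlap, beside 3.99% and 7.69% of all tested genes. TFRC, the transferrin receptor, averaged 6580 ± 1273 in foretinib and 9218 ± 2341 in DMSO libraries (-0.47, -0.98 to 0.04, adjusted p = 0.531).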
